A study of Mus musculus with 6 samples.

Results

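The genes described here are the odorant receptors (Olfr) and vomeronasal receptors (Vmn1r and Vmn2r) whose array signal stood above background in the testis of newborn mice. A receptor gene was taken as detected when its probe was marked well above background by the scanner software on at least 4 of 6 arrays, and the probe with the highest mean signal stood for the gene. By this rule 133 of the 1360 receptor genes with a probe on the array were detected, or 9.78%. The genes were thus chosen by the detection marks of these same 6 arrays, so their detection is a description and carries no test.

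RNA came from whole testes of male mice at postnatal day 0, of a mixed FVB.129/Sv strain, with 2 animals and 2 one-colour arrays in each of 3 genotypes. VSKO mice were Vasa-cre with one deleted and one floxed Sin3a allele, HEMI mice were Vasa-cre with one deleted and one wild-type allele, and WT mice were Vasa-cre with both alleles wild type. All mice thus carried the Cre, which the promoter of the germ cell gene Ddx4 (Vasa, Mvh) drives, and the labels place the loss of both alleles in VSKO in germ cells only. Sin3a encodes the scaffold of a histone deacetylase corepressor complex. Testes were not separated into cell types, so fewer cells of a type and less RNA per cell cannot be told apart.

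Odorant and vomeronasal receptors are G protein-coupled receptors best known from sensory neurons of the nose. An olfactory neuron transcribes one receptor allele out of the whole repertoire, and the receptor signals through Gnal, Adcy3 and the cyclic nucleotide-gated channel. Vmn1r and Vmn2r receptors serve the vomeronasal organ, where they signal through Gnai2 and Gnao1 and the channel Trpc2. Several odorant receptors are also transcribed outside the nose, and sperm carry some of them.

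On the arrays, 59.2% to 64.5% of the non-control spots were well above background and none was saturated. Germ cell markers (7 of 8 on all 6 arrays), Sertoli cell markers (7 of 7) and fetal Leydig cell markers (4 of 4) were detected. So were 12 of 12 markers of endothelium, macrophages, erythroid cells, skeletal muscle, neurons and glia. Detection of markers alone thus does not tell testis cells from others. Sin3a had a log2 signal of 0.50 ± 0.16 in VSKO, 0.89 ± 0.00 in HEMI and 1.1 ± 0.01 in WT (SD, n = 2 each), and its VSKO minus WT difference of -0.60 ± 0.13 (SE) did not pass (limma adjusted p = 0.133). Signals are log2 values relative to the 75th percentile of the array, and a gene is said to rise or fall only where the limma adjusted p was under 0.05 over 24571 genes tested.

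Detection was sparse in every family. Of 1100 Olfr genes 105 were detected (9.55%), of 164 Vmn1r genes 17 (10.37%) and of 96 Vmn2r genes 11 (11.5%). Among all other genes on the array, 23678 of 33720 were detected by the same rule (70.2%). Of the 133 receptors, 107 were well above background on all 6 arrays, 10 on 5 arrays and 16 on 4 arrays. A further 178 receptor genes were detected on 1 to 3 arrays and 1049 on none.

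The arrays differed in how many of the 133 receptors they detected. The VSKO arrays detected 131 and 126, the HEMI arrays 129 and 131, and the WT arrays 124 and 115. The second WT array thus had the fewest, and it also detected the fewest receptor genes of the full repertoire, 146 against 169 to 179 on the other 5. The lowest signal that counted as well above background was -5.81 and -5.57 on the VSKO arrays, -5.61 and -5.89 on the HEMI arrays and -5.35 and -5.25 on the WT arrays, so this limit lay higher in both WT libraries than in the other 4. Its part in the WT counts was not tested.

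Receptors at the edge of the rule are given by mean signal, which can hide single arrays far from that limit. The detected receptors of lowest signal among those on exactly 4 arrays were Vmn1r132 (-5.94), Vmn2r10 (-5.80) and Olfr1380 (-5.44, mean log2 signals over 6 arrays). The receptors of highest signal that missed the rule with 3 arrays were Olfr124 (-3.26), Olfr615 (-4.80) and Olfr965 (-5.20). Olfr124 owed its mean to 1 array, with 9.12 in the second HEMI testis and -6.58 to -5.15 on the other 5. Olfr615 had -3.44 and -2.58 in VSKO and -6.14 to -4.95 in HEMI and WT. Vmn1r132 had -7.98 and -7.79 in VSKO and -5.34 to -4.72 in HEMI and WT.

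The receptors were spread over the receptor clusters of the genome without following their sizes closely. Chromosome 7 held 32 of its 330 receptor genes and chromosome 2 held 21 of 287. Chromosome 11 held 16 of 79 (20.3%), and 9 of these lay within 332 kb (mm9 chr11:58268658-58600730), among 18 receptor genes with a probe in that span. Chromosome 5 held 4 of 8, which were the neighbours Vmn2r10, Vmn2r11, Vmn2r12 and Vmn2r13 (mm9 chr5:109424966-109585146). Probes of detected receptors had a median GC content of 45%, against 38.3% for probes of receptors that were not detected, and the part of base composition in detection was not tested.

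**Figure D1:**
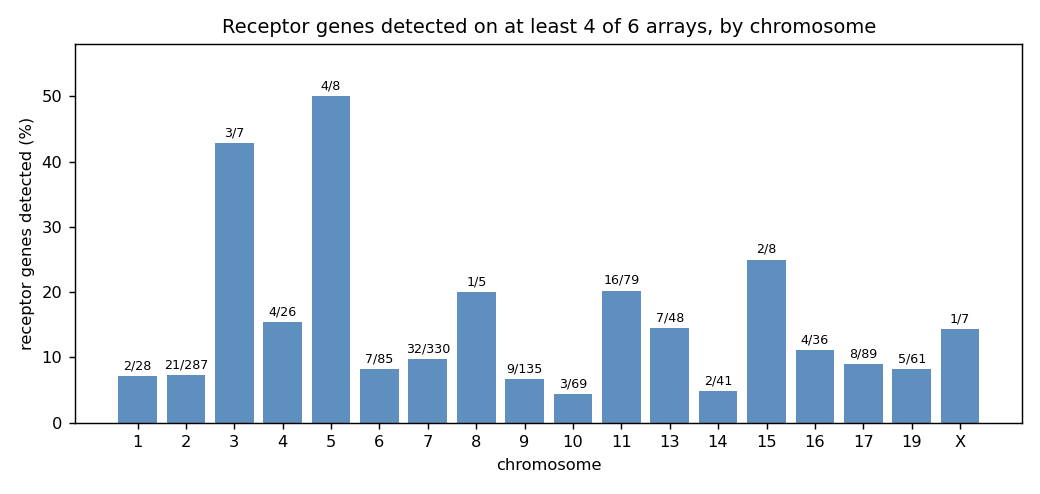
Percent of receptor genes detected on at least 4 of 6 arrays, by chromosome, for chromosomes with at least 5 receptor genes on the array. The fraction over each bar gives detected over all receptor genes, from 3/69 on chromosome 10 to 4/8 on chromosome 5.

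Olfr544, a receptor for azelaic acid that is also known from adipose tissue and pancreatic islets, had the receptor probe of highest signal. Its log2 signal was 2.66 and 3.04 in VSKO, 2.91 and 2.88 in HEMI and 3.15 and 2.92 in WT. VSKO overlapped both other genotypes, and VSKO minus WT came to -0.19 ± 0.18 (SE), which did not pass (limma adjusted p = 0.677). Its probe lies on mm9 chr7:109632628-109632687. Among the detected receptors, the signal patterns over the 6 arrays closest to that of Olfr544 were those of Olfr1350, Olfr549, Olfr1008, Olfr521 and Olfr522, with root mean square distances of 0.06 to 0.08 after each gene was centred.

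Olfr373 was measured by a pair of probes that differed in detection. The probe used here was well above background on all 6 arrays, at 1.73 and 1.78 in VSKO, 1.94 and 1.83 in HEMI and 2.01 and 1.89 in WT. VSKO lay below both other genotypes, but the moderated F over the 3 groups did not pass (limma adjusted p = 0.713). The other probe starts 40 bases further along the same 945-base gene model and was well above background on 0 of 6 arrays. The probes are shown because they share 20 bases, in capitals, and differ only in which side of the overlap they cover (mm9 chr8:74624499-74624558 and chr8:74624539-74624598, plus strand).
Olfr373 probe detected on 6 arrays: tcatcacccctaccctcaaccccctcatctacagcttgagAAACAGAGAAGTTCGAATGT
Olfr373 probe detected on 0 arrays: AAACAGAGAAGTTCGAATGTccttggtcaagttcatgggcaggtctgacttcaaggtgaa

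A second probe could be checked for other receptors too. Of the 133, 21 had another probe for the same gene on the array. In 3 of these, Olfr456, Vmn2r-ps14 and Vmn2r88, another probe was also detected on at least 4 arrays. RefSeq does not name Vmn2r-ps14 as a receptor, as given below. Over the arrays the signals of the probes correlated at Pearson's r = -0.79 for Olfr456 and -0.26 for Vmn2r88. For the other probes of Vmn2r-ps14 the values were 0.92 and 0.36. In 16 of the 21 the other probe was detected on none. Olfr629 is one of the 16, with starts at bases 921 and 1062 of the transcript, and Vmn2r3 is another, with starts at bases 2279 and 2339. The rule took the probe of highest mean signal, so the other probe is the dimmer one by construction.

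Vmn2r-ps14 had the Vmn2r probe of highest signal, at 2.34 and 2.23 in VSKO, 2.08 and 2.22 in HEMI and 2.06 and 2.21 in WT, and 3 probes for it were detected on all 6 arrays. Its accession now carries the name Smarca5-ps in RefSeq (GRCm38.p6), a transcribed pseudogene of the chromatin remodeller Smarca5, so this row of the array is not a vomeronasal receptor by that table. Both VSKO values lay just above the other 4, and the moderated F did not pass (limma adjusted p = 0.808). In all, 7 of the 133 carried a pseudogene name on the array, out of 34 such names among the 1360, and RefSeq now names 3 of the 7 (Olfr1537-ps1, Olfr329-ps and Olfr391-ps) as protein-coding genes.

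The other Olfr probes of high signal did not pass in any comparison. Olfr1229 ran from 0.37 to 0.71 over the 6 arrays, Olfr1252 from -0.84 to -0.64 and Olfr319 from -1.20 to -0.83. Olfr629 had 0.81 and 1.32 in VSKO, 0.73 and 0.87 in HEMI and 1.04 and 0.87 in WT. Olfr1368 had 0.14 and 0.18 in VSKO, -0.05 and 0.19 in HEMI and 0.55 and 0.33 in WT, with both WT values above the other 4. That order did not pass (limma adjusted p = 0.498 for the moderated F). Olfr1466 had 0.64 and 1.45 in VSKO, -0.37 and 1.59 in HEMI and 1.23 and 1.45 in WT, so that the HEMI pair alone spanned more than the distance between any group means.

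Among Vmn1r receptors the highest signals came from Vmn1r65, Vmn1r87 and Vmn1r217. Vmn1r65 had -0.48 and -0.91 in VSKO, -0.94 and -1.37 in HEMI and -0.79 and -0.65 in WT. Vmn1r87 had -1.43 and -0.97 in VSKO, -1.42 and -1.29 in HEMI and -0.68 and -1.003 in WT. Vmn1r217 had -1.79 and -1.002 in VSKO, -1.15 and -1.28 in HEMI and -0.84 and -1.24 in WT. Each of the 3 had overlapping values in VSKO and WT. Both HEMI values lay below all VSKO and WT values for Vmn1r65 and below both WT values for Vmn1r87. The moderated F passed for none of the 3 (limma adjusted p = 0.552, 0.513 and 0.81 in that order). Vmn2r3, the next Vmn2r gene, lay between -2.17 and -1.48 on all arrays. Signals of different probes depend on the probe as well as on the transcript, so the order of these genes is one of probes.

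The probes of Olfr1229, Olfr1368, Olfr319, Vmn1r87 and Vmn1r217 are shown as examples that lie within gene models of coding length, because the detection of each gene rests on them. In capitals, the probes of Olfr522 and Olfr1402 show the 43 bases they share when set 2 bases apart, and both were detected on 6 arrays.
Olfr1229 (mm9 chr2:89122461-89122520, minus): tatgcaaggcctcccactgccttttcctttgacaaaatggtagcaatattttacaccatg
Olfr1368 (mm9 chr13:21234026-21234085, minus): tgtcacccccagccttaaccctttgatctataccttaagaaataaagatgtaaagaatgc
Olfr319 (mm9 chr11:58515786-58515845, plus): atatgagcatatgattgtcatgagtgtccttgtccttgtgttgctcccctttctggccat
Vmn1r87 (mm9 chr7:13716872-13716931, minus): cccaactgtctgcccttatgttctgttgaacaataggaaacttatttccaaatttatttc
Vmn1r217 (mm9 chr13:23205741-23205800, minus): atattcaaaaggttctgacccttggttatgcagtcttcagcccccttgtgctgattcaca
Olfr522 (mm9 chr7:147347974-147348033, minus): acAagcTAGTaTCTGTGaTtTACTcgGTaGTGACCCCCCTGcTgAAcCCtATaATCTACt
Olfr1402 (mm9 chr3:97214221-97214280, minus): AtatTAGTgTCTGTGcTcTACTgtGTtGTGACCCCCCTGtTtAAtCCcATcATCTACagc

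**Figure D2:**
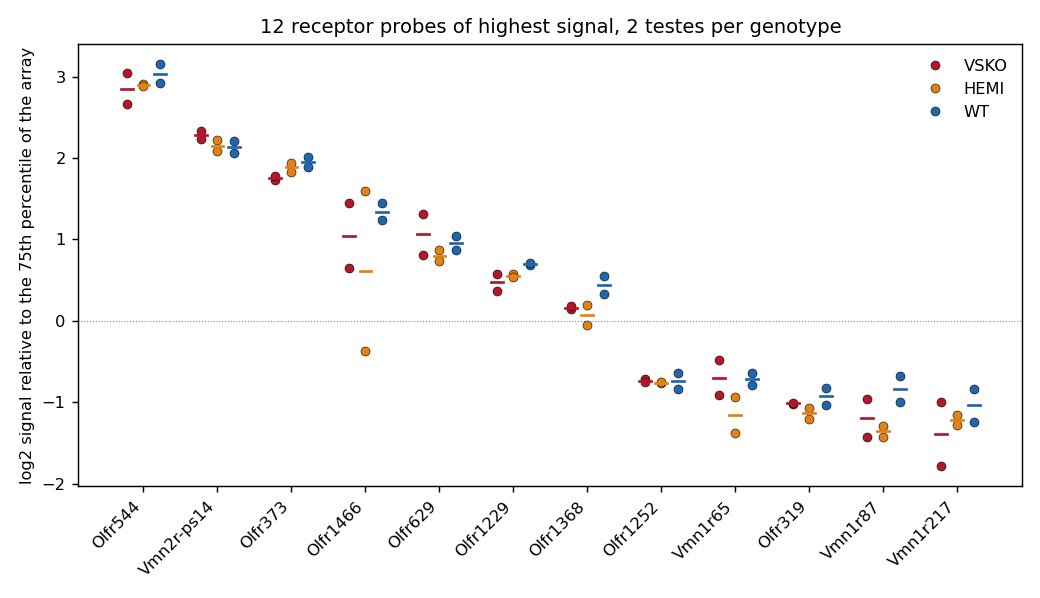
Log2 signal relative to the 75th percentile of the array for the 12 receptor probes of highest mean signal. Points are single testes, short bars the mean of each genotype (2 testes), with VSKO, HEMI and WT from left to right within a gene; Olfr544 lies between 2.66 and 3.15 on all arrays, while Olfr1466 spreads from -0.37 to 1.59 within HEMI.

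Of the 8 odorant receptors listed for expression outside the nose, 2 were detected, Olfr544 and Olfr558. Olfr16, the receptor known from mouse sperm, and Olfr78, known from the carotid body and kidney, were well above background on 0 of 6 arrays, as were Olfr1393, Olfr15 and Olfr2, and Olfr734 was so on 1. Olfr558, a receptor for short-chain fatty acids also found in blood vessels, had -3.73 and -4.88 in VSKO, -4.30 and -4.07 in HEMI and -2.995 and -3.14 in WT. Both WT values lay above the other 4, but neither the VSKO minus WT difference of -1.24 ± 0.38 (SE, limma adjusted p = 0.242) nor the HEMI minus WT difference of -1.12 ± 0.38 (adjusted p = 0.342) passed.

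Genes of the machinery that receptors use, much of which serves other cells too, were counted on all 6 arrays, whereas the 70.2% of other genes above met the rule of 4 arrays. Of 16 odorant transduction genes 13 were detected on all 6 arrays, among them Gnal, Adcy3, Cnga2 and Cngb1. Of 9 vomeronasal transduction genes 5 were, Trpc2 included. Of 7 trafficking genes, whose products bring receptors to the cell surface, 5 were detected on 6 arrays, while Rtp1 and Rtp3 were detected on none. Of 19 regulators of receptor choice in olfactory neurons, such as Lhx2, Ldb1 and Kdm1a, 18 were detected on 6 arrays and Trim66 on none. Of the 44 genes of these 4 lists that were tested, limma called 0 in each of the 3 comparisons, while 10 in VSKO minus WT, 5 in HEMI minus WT and 4 in VSKO minus HEMI had an unadjusted p under 0.05, where 14.7%, 12.4% and 7.69% of all genes did in the 3 comparisons in that order. Of 11 markers of olfactory sensory neurons 7 were detected on all arrays, Omp among them, while Stoml3 and Rtp1 were on none. Omp averaged 1.66 ± 0.19 in VSKO, 1.74 ± 0.47 in HEMI and 2.56 ± 0.08 in WT (SD, n = 2 each), and its VSKO minus WT difference of -0.90 ± 0.25 (SE) did not pass (limma adjusted p = 0.204).

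Testes of one genotype differed from each other by an amount that depended on signal. The SD between testes of a genotype, pooled over the 3 groups, had a median of 0.27 over the 133 receptors and of 0.17 over the other 24438 genes tested. Most receptors were dim, and at like signal the spread was close to that of other genes. Below -5 it was 0.42 for 23 receptors and 0.43 for other genes, from -5 to -4 it was 0.29 and 0.33, from -4 to -2 it was 0.25 and 0.23, and above -2 it was 0.14 for 19 receptors and 0.13 for other genes. The receptors of largest spread were Olfr1251 (SD 1.45), Olfr1243 (1.14), Olfr1466 (0.87) and Olfr224 (0.81).

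A few receptors had 10 spots on each array, which shows the noise of the array itself. Spots of Olfr53 on one array had an SD of 0.14 to 0.23, those of Olfr74 of 0.27 to 0.47 and those of Olfr868 of 0.20 to 0.59, with 8 to 10 spots left after outliers. The SD between testes of a genotype, taken from spot means, was 0.11, 0.21 and 0.26 for the 3 genes in that order. The measure to set beside it is the SE of the spot mean. On single arrays that SE was 0.043 to 0.072 for Olfr53, 0.091 to 0.166 for Olfr74 and 0.064 to 0.195 for Olfr868, below the SD between testes for each gene.

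**Figure D3:**
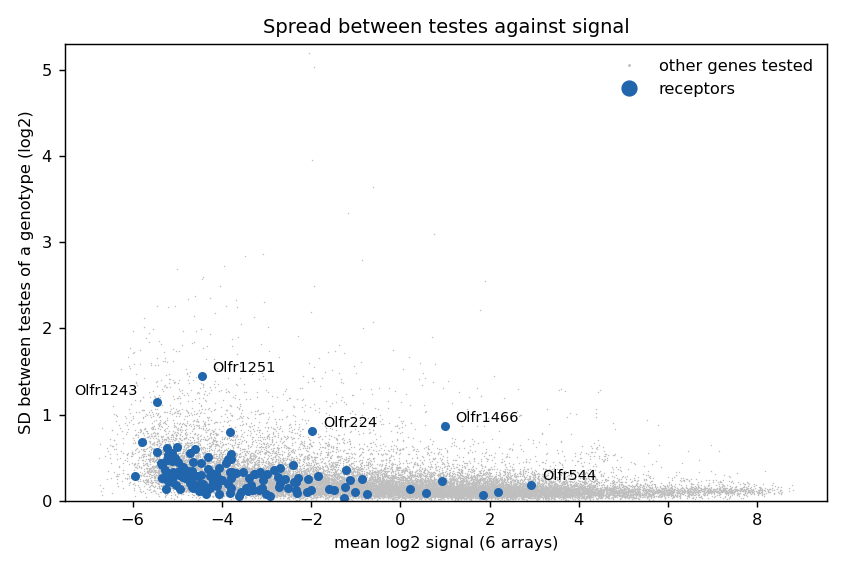
SD between testes of a genotype (log2, pooled over VSKO, HEMI and WT) against mean log2 signal over 6 arrays. Receptors are blue and the other genes tested grey; most receptors lie below a signal of -2, where the spread of all genes is larger, and Olfr1466 stands out among receptors of higher signal with an SD of 0.87.

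Across genotypes, 2 of the 133 receptors changed, Vmn2r111 and Vmn1r132, and both were lower in VSKO than in WT. Vmn1r132 met the detection rule through HEMI and WT alone, so its calls against VSKO are a description and no support. A receptor above background in a single genotype could not meet the rule. A rise from below background in VSKO alone could thus not be counted here, and the direction of the calls is partly set by the rule. Among the 107 receptors detected on all 6 arrays, Vmn2r111 was the 1 call in VSKO minus WT and in HEMI minus WT, and limma called 0 in VSKO minus HEMI (6 at an unadjusted p under 0.05). Over all 133, the calls in VSKO minus WT were these 2, both lower, where 0.977% of all 24571 genes passed. In HEMI minus WT 1 receptor, Vmn2r111, was lower, where 0.118% of all genes passed, and in VSKO minus HEMI 1 receptor, Vmn1r132, was lower, where 0.142% passed. The moderated F over the 3 groups passed for the same 2 genes, where 0.667% of all genes passed. At an unadjusted p under 0.05 the receptors numbered 13 in VSKO minus WT (9.77%, against 14.7% of all genes), 14 in HEMI minus WT (10.53%, against 12.4%) and 7 in VSKO minus HEMI (5.26%, against 7.69%), so receptors passed at about the rate of other genes or below it. By the array position numbers in the deposited file names, the WT arrays had a first position number of 2 on the slide, and the VSKO and HEMI arrays had 1, so position and genotype cannot be told apart in the comparisons with WT. The HEMI and VSKO differences from WT share the WT arrays.

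The median difference over the 133 receptors was -0.04 in VSKO minus WT, -0.12 in HEMI minus WT and 0.09 in VSKO minus HEMI, against -0.01, -0.02 and 0.02 over all genes tested. The median receptor signal was -4.07 and -4.003 on the VSKO arrays, -4.07 and -4.11 on the HEMI arrays and -3.81 and -3.91 on the WT arrays. The difference was above 0 for 56 of the 133 receptors in VSKO minus WT (42.1%, against 48.7% of all genes), for 46 in HEMI minus WT (34.6%, against 46.4%) and for 86 in VSKO minus HEMI (64.7%, against 55.4%). Both VSKO values lay above both WT values for 21 receptors (15.8%, against 22.3% of all genes) and below for 28 (21.1%, against 23.4%). Both HEMI values lay above both WT values for 12 (9.02%, against 21%) and below for 46 (34.6%, against 28.4%), and both VSKO values lay above both HEMI values for 31 (23.3%, against 18.8%) and below for 12 (9.02%, against 14.1%). These counts carry no test, and the 3 comparisons share arrays. Leaving out the first WT testis gave a VSKO minus WT median of 0.01 and leaving out the second gave -0.14. When each array was left out in turn, the HEMI minus WT median ran from -0.231 to -0.0416 and the VSKO minus HEMI median from 0.0312 to 0.11. The VSKO minus HEMI median was 0.0152 with the arrays scaled by their median, a setting that moves all genes of a comparison by the same amount. The median over all genes was then -0.0473. Over the receptors, the difference of one VSKO and WT pair of testes correlated with that of the other pair at Pearson's r = 0.31 and 0.29 for the 2 ways of pairing, against 0.43 and 0.45 over all genes tested. In VSKO minus HEMI the receptor values were 0.00 and 0.23. These are correlations across genes, which are not independent replicates, and the pairs of testes share arrays between the 2 ways of pairing.

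**Figure D4:**
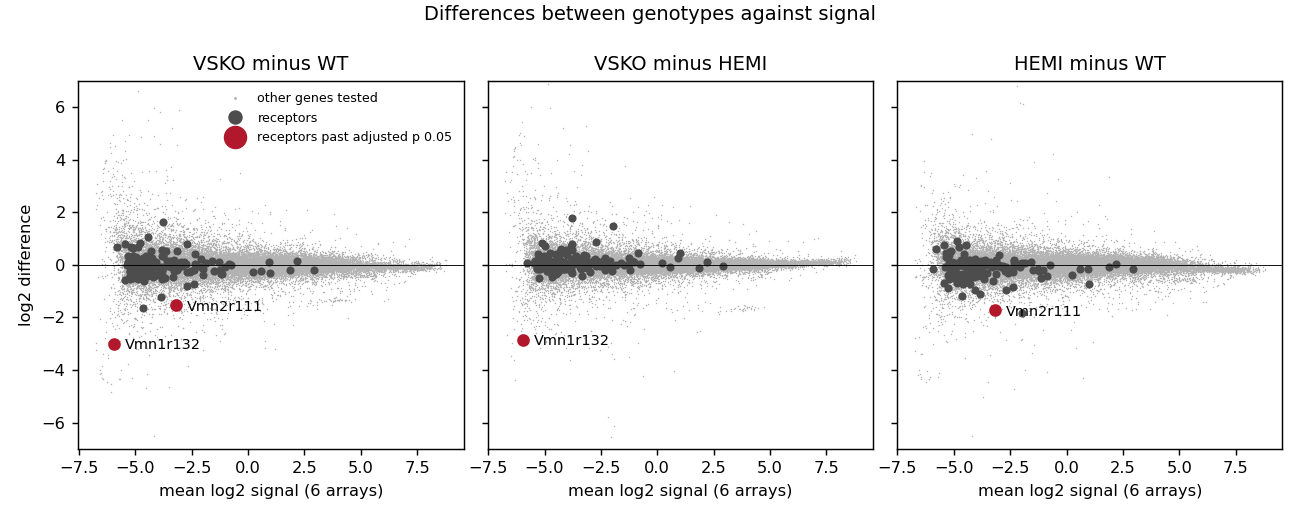
Log2 difference between genotypes against mean log2 signal over 6 arrays, for VSKO minus WT, VSKO minus HEMI and HEMI minus WT. Receptors are dark, the other genes tested grey, and receptors past an adjusted p of 0.05 red; Vmn2r111 and Vmn1r132 are the only red points, and the other receptors lie within the cloud of all genes.

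Vmn2r111, a type 2 vomeronasal receptor gene, had -3.62 and -3.63 in VSKO, -3.93 and -3.71 in HEMI and -1.97 and -2.20 in WT. All 4 VSKO and HEMI values lay below both WT values. The gene fell in VSKO by 1.54 on the log2 scale relative to WT (SE 0.15, limma adjusted p = 0.0299) and in HEMI by 1.73 (SE 0.15, adjusted p = 0.0486), while VSKO minus HEMI was 0.19 (SE 0.15, adjusted p = 0.981). It was detected on all 6 arrays, but its second probe, which starts at base 1579 of the transcript instead of base 2454, was detected on none. Leaving out any one array, of whichever genotype, took the limma adjusted p to between 0.0614 and 0.151 in VSKO minus WT and to between 0.0902 and 0.233 in HEMI minus WT.

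The Vmn2r111 probe is nearly the same as a probe for an unnamed transcript about which the array says nothing more than the identifier NAP113112-1, also on chromosome 17 (mm9 chr17:22684968-22685027 for Vmn2r111 and chr17:23578038-23578097 for the other, both minus strand). The probes agree at 54 of 60 bases. A stretch of 30 bases that holds 5 of the differences is shown, with the bases that differ in capitals.
Vmn2r111: GcagggatgctgggGtgcatCtttgttTcT
NAP113112-1: TcagggatgctgggAtgcatAtttgttCcC
The NAP113112-1 probe had 0.75 and 0.80 in VSKO, 0.54 and 1.13 in HEMI and 1.77 and 1.72 in WT. Its values too were below WT in all 4 VSKO and HEMI testes, by 0.97 in VSKO minus WT (-0.97 ± 0.21 SE), which did not pass (limma adjusted p = 0.139). Whether the Vmn2r111 probe reads this transcript was not tested.

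Vmn1r132, a type 1 vomeronasal receptor gene, was well above background in HEMI and WT only. It had -7.98 and -7.79 in VSKO, -5.34 and -4.74 in HEMI and -5.04 and -4.72 in WT. In the fit VSKO minus WT was -3.01 ± 0.24 (SE, limma adjusted p = 0.0276) and the VSKO minus HEMI difference was -2.84 ± 0.24 (adjusted p = 0.0458), with HEMI minus WT at -0.16 ± 0.24 (adjusted p = 0.814). Since both VSKO arrays were not well above background, the fitted size has no meaning beyond a bound, and the signal was at least 1.75-fold lower in VSKO than in WT and at least 1.57-fold lower than in HEMI, set against the lowest signal that counted as above background on each VSKO array. It is the only receptor detected on both arrays of HEMI and WT and on none of VSKO, and with 4 arrays it met the rule through those groups alone. In the same way 4 receptors, Olfr551, Olfr1395, Olfr282 and Vmn2r10, were detected on both arrays of VSKO and HEMI and on none of WT, and their VSKO minus WT differences did not pass (limma adjusted p = 0.23 to 0.84). Leaving out either VSKO or either WT array took the VSKO minus WT adjusted p to between 0.0853 and 0.148, and leaving out any one array took that of VSKO minus HEMI to between 0.0832 and 0.17. With normexp background correction the VSKO minus WT difference was -0.51 and did not pass (limma adjusted p = 0.173). Its closest other probe, of Vmn1r148, matched 50 bases and was detected on 0 arrays.

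**Figure D5:**
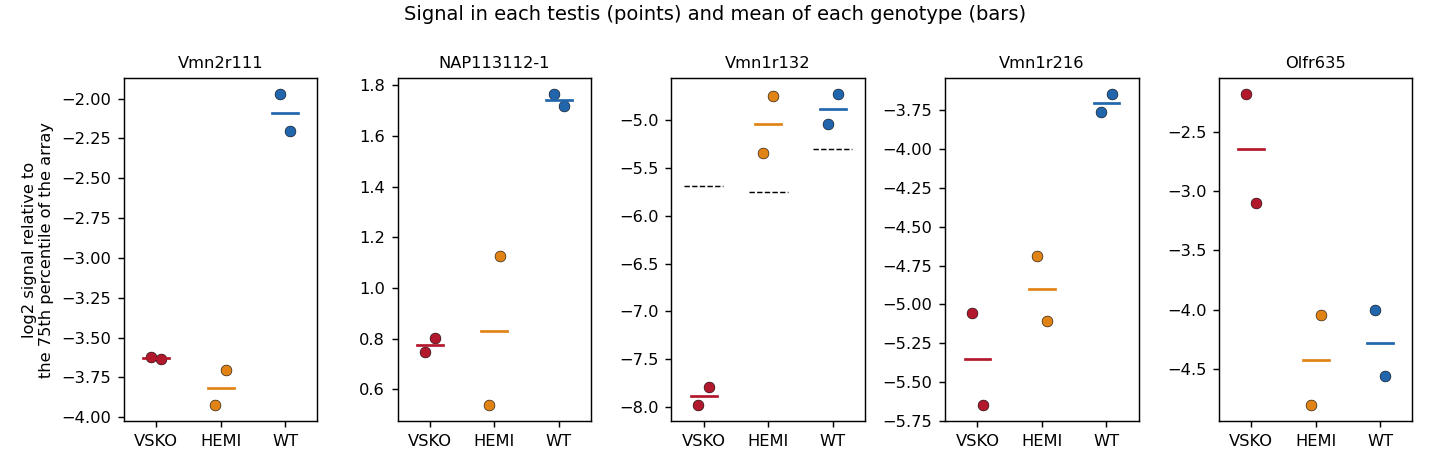
Log2 signal in each testis (points) and the mean of each genotype (bars, n = 2) for Vmn2r111, the near-identical probe NAP113112-1, Vmn1r132, Vmn1r216 and Olfr635, with VSKO, HEMI and WT from left to right and a separate scale in each panel. The dashed lines beside Vmn1r132 mark the mean lowest signal that counted as well above background; both VSKO values lie below theirs, and both WT values of Vmn2r111 lie above the other 4.

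Several further receptors had large differences that did not pass. Olfr635 had -2.18 and -3.10 in VSKO, -4.81 and -4.05 in HEMI and -4.01 and -4.56 in WT. Both VSKO values lay above the other 4, with a VSKO minus WT difference of 1.64 ± 0.42 (SE, limma adjusted p = 0.181) and a VSKO minus HEMI difference of 1.79 ± 0.42 (adjusted p = 0.291). Vmn1r204 had -1.90 and -2.40 in VSKO, -3.06 and -2.98 in HEMI and -2.91 and -2.98 in WT, again higher in both VSKO testes, at 0.79 ± 0.19 for VSKO minus WT (adjusted p = 0.165).

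Vmn1r216 ran the other way. It had -5.06 and -5.65 in VSKO, -4.69 and -5.11 in HEMI and -3.76 and -3.64 in WT, with no overlap between VSKO and WT. VSKO minus WT came to -1.65 ± 0.25 (SE) and did not pass (limma adjusted p = 0.0678), and it passed only with the arrays scaled by their median (-1.68, adjusted p = 0.0304). Olfr700, at -0.81 ± 0.31, had the next largest negative difference after Olfr558 (adjusted p = 0.324).

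Some receptors differed widely between testes of one genotype. Olfr224 had -0.65 and -2.58 in VSKO, -3.28 and -2.88 in HEMI and -1.32 and -1.16 in WT, so the largest negative HEMI minus WT difference, -1.84 ± 0.62 (SE, limma adjusted p = 0.34), stood beside a VSKO pair that differed by more. Olfr1251 had -5.11 and -2.86 in VSKO, -2.96 and -5.65 in HEMI and -4.79 and -5.31 in WT, with one high testis in VSKO and one in HEMI. Olfr1243 had -5.26 and -5.05 in VSKO, -5.28 and -5.18 in HEMI and -4.57 and -7.37 in WT, where the second WT testis stood alone.

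The other named differences did not pass either. Vmn1r168 (0.83 ± 0.24) in VSKO minus WT and Olfr780 (0.93 ± 0.32) and Vmn2r10 (0.59 ± 0.53) in HEMI minus WT had means above WT (SE given). None passed (limma adjusted p = 0.225, 0.346 and 0.684 in that order). Vmn2r10 had -5.49 and -5.78 in HEMI and -7.04 and -5.40 in WT. Its difference thus rested on the first WT testis, and it was not well above background in WT. In VSKO minus HEMI, Vmn2r65 (0.83 ± 0.36) and Vmn2r13 (0.81 ± 0.28) were among the largest positive and Olfr1441 (-0.49 ± 0.37), Olfr96 (-0.41 ± 0.17) and Olfr1419 (-0.39 ± 0.28) among the largest negative differences, with adjusted p of 0.538 to 0.976. Vmn2r11, Vmn2r12 and Vmn2r13, neighbours on chromosome 5, were each highest in the first VSKO testis, at -3.38, -2.90 and -2.998, against -4.62 to -3.67 on the other 5 arrays. Vmn2r10, their neighbour, was not, at -5.62 in that testis and -5.47 in the second VSKO testis. The Vmn2r12 and Vmn2r13 probes match at 57 of 60 aligned bases, and whether each reads the other's transcript was not tested.

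Similar probes were common among the vomeronasal receptors. In all, 11 of the 133 receptor probes matched a probe of another gene at 50 or more bases, and 10 of these 11 were vomeronasal. For 15 receptor probes no other probe of the array aligned, and for 84 the closest matched at fewer than 40 bases.

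Markers of other cells in the testis also differed between genotypes. Of 8 germ cell markers, 2 were lower in VSKO than in WT, Dnmt3l and Nanos2, where 0.977% of all genes passed, and 3 of the 8 had an unadjusted p under 0.05, against 14.7% of all genes. Dnmt3l, which helps set up DNA methylation in male germ cells, averaged -0.11 ± 0.02 in VSKO, -0.54 ± 0.16 in HEMI and 1.65 ± 0.28 in WT (SD, n = 2 each), and fell by 1.76 in VSKO relative to WT (SE 0.18, limma adjusted p = 0.0311) and by 2.19 in HEMI (SE 0.18, adjusted p = 0.0427). Of the 4 fetal Leydig cell markers tested, 1 was lower in VSKO, the steroid enzyme gene Cyp17a1 (-1.40 ± 0.16 SE, limma adjusted p = 0.0423), and 3 of the 4 had an unadjusted p under 0.05, while 0 of 7 Sertoli cell markers passed by limma in VSKO minus WT (1 at an unadjusted p under 0.05). Nanos2, a regulator of male germ cell fate, averaged -6.05 ± 0.61 in VSKO, where it was not well above background, -2.43 ± 0.36 in HEMI and -3.12 ± 0.23 in WT (SD, n = 2 each), at least 5.96-fold lower in VSKO than in WT (limma adjusted p = 0.0423). Vmn2r111 shares the order of Dnmt3l, with VSKO and HEMI both below WT, but it was named because limma called it lower than WT. Over all genes, both VSKO values lay below both WT values for 23.4%, and both HEMI values did for 28.4%. The share of genes with both was not counted. The Leydig cell markers Star (-1.83 in VSKO minus WT, -1.94 in HEMI minus WT), Cyp17a1 (-1.40, -1.03) and Cyp11a1 (-0.886, -0.999) also had both means below WT. Of these differences only that of Cyp17a1 in VSKO minus WT passed. The Leydig cell marker Hsd3b1 (0.032, -0.13) did not. The germ cell markers Pou5f1 (-0.49, -0.63), Dppa4 (-0.28, -0.43), Dazl (-0.31, -0.22), Tdrd1 (-0.42, -0.28) and Mael (-0.050, -0.074) did, and none of these differences passed. Ddx4 (-0.24, 0.096) and Nanos2 (0.69 in HEMI minus WT) did not. Vmn1r132 shares the marks of Nanos2, above background in HEMI and WT and not in VSKO, but it entered the set through those marks. The part of these cell types in the receptor signals was not tested.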

How the data were processed

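Whole-testis RNA of 6 mice was hybridised to 1-colour Agilent arrays. Per the file headers, the deposited array files hold the processed signal as a background-subtracted, detrended intensity on a linear scale, and 0 or 1 quality flags (other). Feature Extraction had version 10.7.3.1 per the file headers and 8.5.1.1 per the submitters' processing notes. The authors' deposited series table, an intensity too, equals the processed signal over its array median. The probe positions are on mm9 (NCBI37).

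The log2 processed signal minus the 75th percentile of each array was used, with outlier spots left out and spots of a probe averaged. Probes well above background on both arrays of a group were kept, 1 per gene. limma 3.58.1 (R 4.3.3, lmFit and eBayes without trend) fitted the 3 groups together, with Benjamini-Hochberg adjustment over 24571 genes. In 5 sets of data simulated over these genes with normal noise, 200 genes were changed in VSKO alone. In VSKO minus WT, 16.2% of log2 changes of 1 and 64.0% of changes of 2 were recovered. These rates depend on the number of changed genes, which is not known for the real arrays. Probe sequences were compared with blastn 2.17.0. Few arrays limit the precision.

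The receptors and gene lists were chosen with earlier results of these data known. Named receptors are those past the threshold, the 12 of highest signal, the top 3 of each family, the 5 largest differences in each direction per comparison, those known outside the nose, those at the edge of the rule and the 5 closest to Olfr544. Alternatives are given at the end.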

Additional observations from a re-analysis of the deposited data

How the results depend on the processing

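The count of 133 receptors became 311 with 1 array required and 368 with the mark for a positive and significant signal on 4 arrays, and stayed at 107 to 117 with 5 or 6 arrays required. Calls were fragile. In VSKO minus WT the 2 calls became 1 with normexp, with detection on all 6 arrays or with the replicate block, 0 without the filter on dim probes, and 0 to 1 when an array was left out. In HEMI minus WT the 1 call became 0 with quantile scaling, without the filter, with the replicate block and in each leave-one-out fit (0 to 0). In VSKO minus HEMI the 1 call became 0 with quantile scaling, normexp, no filter, all 6 arrays, a mean-variance trend, the replicate block and in each leave-one-out fit. The moderated F gave 0 calls with quantile scaling, without the filter, with the block and in each leave-one-out fit, and 1 with normexp or all 6 arrays, against 2. Vmn1r132 was not among the genes tested when detection on all 6 arrays was required. The drop by 1 call under that setting was thus fixed in advance in VSKO minus WT, VSKO minus HEMI and the moderated F. It is no sign of fragility. With the replicate block, adjusted p was 0.0753 for Vmn2r111 in VSKO minus WT, 0.131 in HEMI minus WT and 0.0601 for Vmn1r132 in VSKO minus HEMI. Over all genes, same-numbered testes did not deviate together (r = -0.04, -0.03 and -0.01 between groups). These values cannot tell whether testes of the same number were paired by litter or handling.

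The median receptor difference in VSKO minus WT was -0.11 with normexp and ran from -0.14 to 0.0145 over leave-one-out fits. In HEMI minus WT it ran from -0.231 to -0.0416 over them. In VSKO minus HEMI it was 0.02 with median or quantile scaling (0.0152 and 0.0244) and with the authors' series table (0.0152), and ran from 0.0312 to 0.11 over leave-one-out fits. The VSKO minus HEMI median over all genes moved as well. It was 0.0238 in the main fit, -0.0473 with median scaling or the series table and 0.0035 with quantile scaling. Of 32 named differences 26 kept their sign under every alternative run. With normexp, Olfr1243 was -0.0689 in VSKO minus WT and -0.124 in HEMI minus WT, and Vmn2r10 was -0.048 in HEMI minus WT. Over leave-one-out fits, Olfr1251 ran from -0.0635 to 2.18 in VSKO minus WT and from -0.60 to 2.09 in HEMI minus WT, Olfr1243 from -0.58 to 2.21 and from -0.65 to 2.14, Vmn2r10 from -0.23 to 1.41 in HEMI minus WT and Vmn1r132 from -0.46 to 0.14 in HEMI minus WT. The causes were not tested.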
